A study of Homo sapiens with 16 samples.

Results

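The genes described here copy DNA at the replication fork or act beside it in S phase. They are 44 of the 58735 genes in the deposited table, taken by name from a list of DNA polymerase, sliding clamp, GINS, fork and S-phase genes and not by their measured values. RNA was sequenced from U2OS, a human osteosarcoma cell line, so every library comes from 1 line. Cells carried an siRNA against SETD2 (siSETD2) or a non-targeting control siRNA (siNT), and were collected 48 h after transfection. SETD2 is the enzyme that places the third methyl group on lysine 36 of histone H3. Under each siRNA, cells received 2 mM hydroxyurea (HU) together with 2 µM VE-822, HU alone, VE-822 alone or no drug over 4 h. HU blocks ribonucleotide reductase and so starves forks of deoxynucleotides, and VE-822 inhibits ATR, the kinase that answers stalled forks. These 8 groups held 2 libraries each, labelled R1 and R2. The labels do not name them as separate cultures, so a p-value here measures spread among these libraries only, and that spread may be technical.

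Replication begins when the kinase CDC7 and its activator DBF4 let CDC45 and the GINS complex join the MCM helicase. DNA polymerase alpha-primase then lays primers, the RFC complex loads the sliding clamp PCNA, and polymerases delta and epsilon extend the strands while RPA coats the single-stranded template. FEN1, LIG1 and RNASEH2A finish the lagging strand, TIMELESS, TIPIN and WDHD1 hold the fork together, and chromatin factors rebuild nucleosomes and DNA methylation behind it. Many of these genes are transcribed at the start of S phase under E2F transcription factors.

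Promoter letters are shown for the genes called in HU with VE-822 and for the members that hold a full E2F word. Windows of 250 bases before the annotated start came from RefSeq (GRCh38.p14), where 38 of the 44 genes matched by symbol and ATAD2, DSCC1, GINS4, POLD3, RPA2 and RPA3 did not. On either strand, the E2F words TTTCCCGC or TTTGGCGC or TTTCGCGC or TTTGCCGC occurred in 8 of the 38 windows (21.1%), against 2.79% of all 35116 promoters in the table. Their 7-letter forms without the first T (TTCCCGC or TTGGCGC or TTCGCGC or TTGCCGC), which every full word contains, occurred in 15 windows (39.5%), against 10.9% of all promoters. The CCAAT box was found in 21 windows (55.3%, against 32% of all), the GC box GGGCGG in 29 (76.3%, against 42.6% of all) and the word TTTGAA in 1 (2.63%, against 13.3% of all). The members had 1 window each, and the shares of all promoters were not limited to the genes tested or matched for base content. Such a match is a description of the letters and not evidence of binding. The windows of UNG (chr12:109097347-109097596, plus strand), PCNA (chr20:5126623-5126872, minus strand), CDC7 (chr1:91500601-91500850, plus strand) and TIMELESS (chr12:56449427-56449676, minus strand) follow, 5′ to 3′ on the strand of the gene. They belong to the 4 genes called in HU with VE-822 against untreated when the shared R1 to R2 difference was taken out of the fit, where 0 were called without that step, and PCNA and TIMELESS were not called when the VE-822-alone libraries were left out as well. Capitals mark the 7-letter E2F words. The last bases of the UNG and PCNA windows lie inside the gene as GENCODE 29 draws it.
UNG: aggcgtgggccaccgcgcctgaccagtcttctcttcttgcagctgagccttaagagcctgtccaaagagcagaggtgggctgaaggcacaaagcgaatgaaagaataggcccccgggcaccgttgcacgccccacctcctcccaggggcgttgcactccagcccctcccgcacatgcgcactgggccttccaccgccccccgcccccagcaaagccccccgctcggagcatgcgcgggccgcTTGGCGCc
PCNA: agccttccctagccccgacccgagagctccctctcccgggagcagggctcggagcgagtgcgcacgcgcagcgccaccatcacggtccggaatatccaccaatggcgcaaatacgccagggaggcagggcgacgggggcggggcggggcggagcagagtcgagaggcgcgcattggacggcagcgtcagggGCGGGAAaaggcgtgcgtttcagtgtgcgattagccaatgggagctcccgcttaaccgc
CDC7: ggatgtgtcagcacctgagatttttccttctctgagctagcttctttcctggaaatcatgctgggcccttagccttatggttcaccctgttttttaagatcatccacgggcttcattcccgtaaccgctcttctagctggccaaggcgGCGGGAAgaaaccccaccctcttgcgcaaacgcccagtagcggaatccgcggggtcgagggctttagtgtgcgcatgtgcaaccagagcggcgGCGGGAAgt
TIMELESS: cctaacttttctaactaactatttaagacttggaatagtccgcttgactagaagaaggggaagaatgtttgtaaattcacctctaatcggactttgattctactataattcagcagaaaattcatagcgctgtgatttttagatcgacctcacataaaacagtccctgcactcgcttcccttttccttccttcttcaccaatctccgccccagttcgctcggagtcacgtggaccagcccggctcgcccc
CDC7 held 2 of these words, UNG and PCNA held 1 each, and no such word was found in the TIMELESS window.

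The 8 full E2F words lay before the RefSeq start in the windows of GINS2 (chr16:85688967-85688996, minus strand), LIG1 (chr19:48170440-48170469, minus strand), PCNA (chr20:5126663-5126692, minus strand), POLA1 (chrX:24693770-24693799, plus strand), POLA2 (chr11:65261898-65261927, plus strand), POLE (chr12:132687343-132687372, minus strand), RFC3 (chr13:33818083-33818112, plus strand) and UHRF1 (chr19:4909471-4909500, plus strand). In GENCODE 29, whose bounds span all transcripts of a gene, 5 of these stretches (GINS2, LIG1, POLA2, RFC3 and UHRF1) lie wholly inside the gene, that of POLE lies across its start, and those of PCNA and POLA1 lie before it. Their genes belong to helicase activation, clamp loading, polymerases alpha and epsilon, ligation and maintenance methylation. Each stretch has 30 bases, 5′ to 3′ on the strand of the gene, with the full word in capitals.
GINS2: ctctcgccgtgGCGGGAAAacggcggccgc
LIG1: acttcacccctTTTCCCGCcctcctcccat
PCNA: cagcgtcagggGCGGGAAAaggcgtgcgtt
POLA1: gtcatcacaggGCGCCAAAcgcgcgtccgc
POLA2: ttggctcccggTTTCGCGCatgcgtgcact
POLE: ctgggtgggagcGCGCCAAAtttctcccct
RFC3: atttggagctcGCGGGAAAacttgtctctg
UHRF1: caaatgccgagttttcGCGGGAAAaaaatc
In GINS2, PCNA, POLA1, POLE, RFC3 and UHRF1 the word was read on the strand opposite to the gene, and in LIG1 and POLA2 on the strand of the gene.

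Values are FPKM, fragments scaled to exon length and to library size, so levels of different genes can be compared per length. Whole fragments recovered from them summed to between 22310806 and 31101932 per library. All 8 siSETD2 libraries held less SETD2 (2.01 to 4.62 FPKM) than all 8 siNT libraries (7.34 to 9.25 FPKM), with an averaged log2 fold change of -1.09 (limma, adjusted p = 0.0169). With siSETD2, R1 held 2.64 FPKM in HU with VE-822, 2.22 in HU and 2.01 untreated, and R2 held 3.67, 4.13 and 4.17. VE-822 alone held 4.62 in R1 and 3.95 in R2. Depth of the knockdown and set of libraries therefore cannot be told apart in siSETD2 cells. Of the osteoblast and mesenchymal markers, 4 of 8 reached a mean of 1 FPKM (RUNX2, SPARC, COL1A1 and VIM, with the list summing to 238.2 to 402.7 FPKM). SPARC (mean 164.6 FPKM) and VIM (117.7 FPKM) were the highest, and RUNX2 averaged 2.55 FPKM. COL1A2 (0.011 FPKM), ALPL (0.135 FPKM), SP7 (0.0028 FPKM) and BGLAP (0.36 FPKM) did not reach 1 FPKM. The epithelial list summed to 4.24 to 11.9 FPKM, the blood list to 2.61 to 7.67 FPKM with HBA1 listed at 0, and the endothelial list to 0.299 to 0.700 FPKM. In the epithelial list 2 of 7 reached a mean of 1 FPKM (EPCAM at 1.9 and CLDN4 at 5.68 FPKM). The blood list also had 2 of 7 (CD3D at 1.71 and ITGAM at 2.20 FPKM), and the endothelial list 0 of 4. The 4 libraries of VE-822 alone stood apart, at 29.46 to 35.27 on the first principal component (46.1% of the variance). Among the remaining libraries, R2 lay at 0.86 to 7.23 and R1 at -33.32 to -20.54, so VE-822 alone and its set of libraries cannot be told apart.

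The replication genes followed the replicate number. Leaving aside VE-822 alone, in the other 6 groups 27 of the 43 members tested were higher in R2 than in R1 every time, against 19.2% of all 13088 genes tested. None was lower in R2 in all 6 groups, against 17.5% of all genes. In untreated siSETD2 cells 28 members were higher in R2, with a median difference in log2(FPKM + 1) of 0.11, and in the other 5 groups 37 to 42 were, with medians of 0.24 to 0.37. In VE-822 alone, 17 members were higher in R2 under siSETD2 (median -0.04) and 10 under siNT (median -0.11). For this reason counts of calls are given without and with a replicate block, and single genes with the fit named beside each p-value. The block takes the shared R1 to R2 difference out of those 6 groups. It leaves every fold change as it was and lowered the median standard error of the members to 0.0916 with the block, against 0.135 without it, in drug comparisons averaged over both siRNAs.

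**Figure D1:**
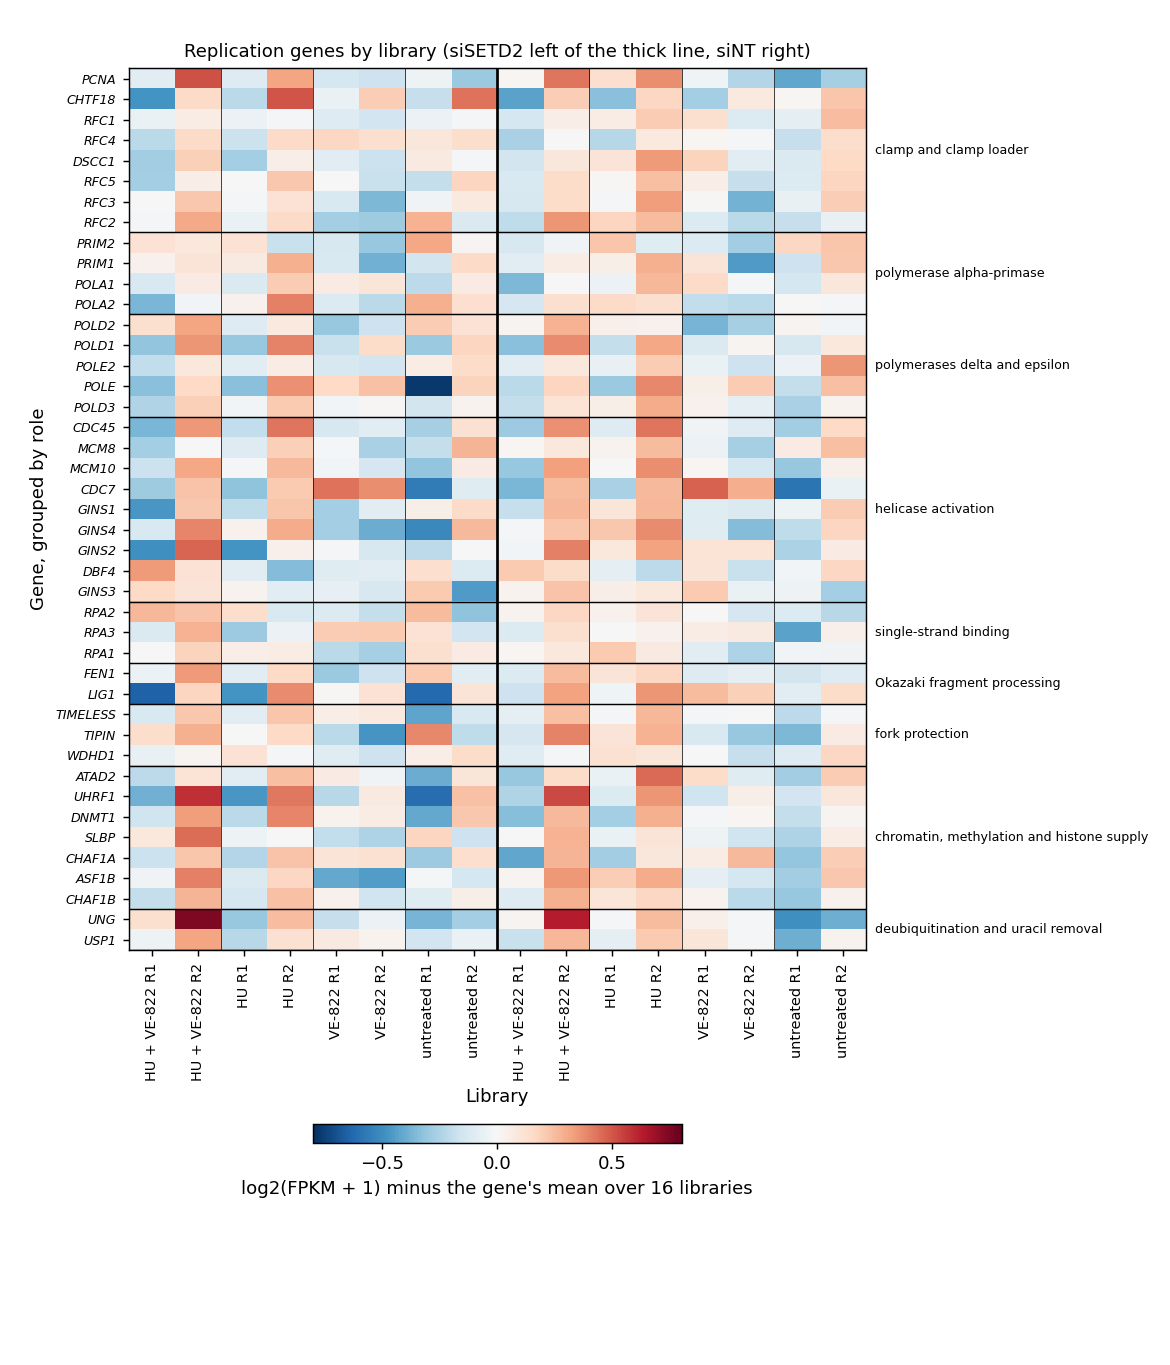
Heat map of log2(FPKM + 1) minus the mean of each gene over 16 libraries, for the 43 members tested, grouped by role; columns are libraries, with the 8 siSETD2 libraries left of the thick line and the 8 siNT libraries right of it. Outside VE-822 alone, most genes are redder in R2 than in R1, and 27 of them are higher in R2 in all 6 groups.

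Expression levels covered a wide range. The sliding clamp PCNA had the highest mean over 16 libraries at 110.7 FPKM, followed by the flap nuclease FEN1 at 57.2 FPKM and the helicase cofactor CDC45 at 42.8 FPKM. The median member had 13.9 FPKM, and 11 members averaged at least 20 FPKM. Members under 5 FPKM were POLA1 (4.97 FPKM) and POLA2 (1.88 FPKM) of polymerase alpha, DBF4 (4.95 FPKM), GINS3 (3.92 FPKM), CHAF1B (2.58 FPKM) and RNASEH2A (0.460 FPKM). RNASEH2A, the catalytic subunit of ribonuclease H2, fell under the minimum mean of 1 FPKM and was not tested, with 0.262 to 0.662 FPKM (23 to 60 fragments) per library. Over the libraries, the highest value of a member exceeded its lowest by a median factor of 1.70, with 1.32 for WDHD1, 2.45 for UNG and 2.52 for RNASEH2A. Of the exon bases, 22 members share none with another gene. POLA2 shares 35.1% with AP000944.2, RNASEH2A 30.8% with THSD8 and TIPIN 21% with RPL9P25, all on the same strand, and GINS4 shares 23.6% on the opposite strand. AP000944.2 averaged 0.0801 FPKM and THSD8 0.00784 FPKM. How fragments in exons shared by genes were counted is not given, so the low levels of POLA2 and RNASEH2A may be understated, which was not tested. PCNA has processed pseudogenes, and how fragments with several matches were counted is not given in the sources used here.

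Most replication genes were slightly higher in HU. Averaged over both siRNAs, 36 of the 43 members were higher in HU than untreated, with a median log2 fold change of 0.12, where 53.5% of all genes were higher with a median of 0.011. No member was called without the block (0 of 43, against 0.107% of all genes called), although 3 had an unadjusted p under 0.05 in limma. Limma-voom on the recovered fragments also called 0. With the block 2 members were called, the kinase CDC7 and the fork protection factor TIMELESS, against 1.6% of all genes. Neither was called with a block over all 8 groups. Without the VE-822-alone libraries the blocked adjusted p-values in limma were 0.0877 for CDC7 and 0.107 for TIMELESS. In the 4 pairs of libraries of 1 siRNA and 1 replicate number, 14 members were higher in HU every time, against 13.4% of all genes, and 2 (DBF4 and POLE2) were lower every time, against 11.1% of all genes. The 14 included CDC45, GINS4, MCM10 and CDC7 of helicase activation and POLA1 and PRIM1 of polymerase alpha-primase. The rest were POLD3, RFC3, RFC5, LIG1, TIMELESS, UHRF1, ATAD2 and UNG.

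Adding VE-822 to HU gave smaller and mixed differences. Averaged over both siRNAs, 15 of the 43 members were higher in HU with VE-822 than in HU, with a median log2 fold change of -0.030, where 53.2% of all genes were higher with a median of 0.014. No member was called by limma without the block (0.00764% of all genes called) or with it (1.31% of all genes called), and limma-voom called 0. Unadjusted p-values under 0.05 numbered 2 without the block and 8 with it. In the 4 pairs, 3 members were higher every time (DBF4, SLBP and UNG), against 17.7% of all genes. In the same pairs 11 were lower every time (ATAD2, CDC45, GINS1, LIG1, MCM8, POLA1, POLA2, POLD3, PRIM1, RFC5 and TIMELESS), against 16.5% of all genes. This comparison and HU against untreated share the HU libraries.

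With HU and VE-822 together, 31 of the 43 members were higher than untreated, with a median log2 fold change of 0.081, where 54.9% of all genes were higher with a median of 0.024. Without the block 0 were called (0.0382% of all genes called, lowest adjusted p of a member 0.0877 in limma), with 3 at an unadjusted p under 0.05 and 0 calls by limma-voom. With the block 4 rose, namely UNG, CDC7, TIMELESS and PCNA, against 7.3% of all genes called. Without the VE-822-alone libraries the block called UNG and CDC7 only, and a block over all 8 groups called UNG only. In the 4 pairs, 7 members were higher every time (CDC7, GINS4, MCM10, RPA2, TIMELESS, UNG and USP1), against 15.4% of all genes. The 4 that were lower every time, CHTF18, MCM8, POLE2 and RFC5, compare with 12.8% of all genes.

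In VE-822 alone, calls were made in both directions. Averaged over both siRNAs, 20 of the 43 members were higher than untreated, with a median log2 fold change of -0.021, where 46.4% of all genes were higher with a median of -0.030. Without the block 4 were called, against 24.7% of all genes, so the members' share was below that of all genes. CDC7 rose, and the polymerase delta subunit POLD2, the single-strand binding protein RPA1 and the primase subunit PRIM2 fell. With the block 12 were called, against 44.9% of all genes, with UNG, CDC7, TIMELESS, CHAF1A and POLE higher and POLA2, POLE2, POLD2, MCM8, RPA1, RFC3 and PRIM2 lower. Leaving out 1 library gave 0 to 4 calls without the block, with 0 when untreated siNT R1 was left out. All of this rests on the libraries that stood apart, so the drug and the library set cannot be told apart. The block places the VE-822-alone libraries midway between R1 and R2. Its p-values for VE-822 alone, here and for single genes below, therefore leave out the spread between library sets.

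SETD2 siRNA gave no call among these genes. Averaged over the 4 treatments, 19 of the 43 members were higher in siSETD2 than in siNT, with a median log2 fold change of -0.0037, where 47.5% of all genes were higher with a median of -0.0075. Limma called 0 members without the block (0.13% of all genes called) and 0 with it (3.88% of all genes called), limma-voom called 0, and unadjusted p-values under 0.05 numbered 0 without the block and 3 with it. The sign of this median turned to 0.032 when values were scaled to library totals and to 0.0086 by median ratios. In the 6 pairs of libraries outside VE-822 alone, RFC4 was the 1 member higher in siSETD2 every time, against 5.78% of all genes, and POLE and TIMELESS were the 2 lower every time, against 8.77% of all genes.

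The values of single genes follow by role, given per library as R1 and then R2. At the start of replication stand CDC7 and DBF4, the 2 subunits of 1 kinase, and their HU fold changes had opposite signs. CDC7 had 7.99 and 11.9 FPKM in HU with VE-822, 7.76 and 11.7 in HU, 13.8 and 13.2 in VE-822 and 6.46 and 9.26 untreated with siSETD2. With siNT, CDC7 had 7.52 and 12.1 FPKM in HU with VE-822, 8.17 and 12.1 in HU, 14.2 and 12.4 in VE-822 and 6.31 and 9.58 untreated. Its level in HU was above the untreated level in each of the 4 pairs, and all 4 libraries of VE-822 alone lay above all 4 untreated ones. The log2 fold change was 0.29 (SE 0.0616) in HU and 0.28 (SE 0.0616) in HU with VE-822, with adjusted p-values of 0.0429 and 0.0242 by limma with the block, against 0.844 and 0.591 without it. Without the 4 VE-822-alone libraries the blocked values were 0.0877 and 0.0482. In VE-822 alone CDC7 rose by 0.71 (SE 0.208) with an adjusted p of 0.0303 by limma without the block and 8.62e-06 with it.

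DBF4, which activates CDC7, was lower in HU without passing the test. In siSETD2 cells DBF4 had 6.49 and 5.41 FPKM in HU with VE-822, 4.57 and 3.65 in HU, 4.54 and 4.56 in VE-822 and 5.48 and 4.49 untreated. In siNT cells DBF4 had 5.83 and 5.55 FPKM in HU with VE-822, 4.59 and 4.12 in HU, 5.34 and 4.22 in VE-822 and 4.81 and 5.62 untreated. The 4 libraries of HU with VE-822 lay above all 4 HU libraries, and HU was below untreated in each pair. The difference between HU with VE-822 and HU, 0.38 (SE 0.103) on the log2 scale, had adjusted p-values of 0.335 by limma without the block and 0.0628 with it, and so did not pass. HU against untreated gave -0.22 (SE 0.103) with adjusted p-values of 0.672 and 0.24.

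CDC45, which holds the helicase in its active form, had 32.4 and 53.7 FPKM in HU with VE-822, 36.5 and 57.0 in HU, 38.3 and 39.4 in VE-822 and 34.7 and 45.8 untreated with siSETD2. With siNT, CDC45 had 34.2 and 54.4 FPKM in HU with VE-822, 39.1 and 56.9 in HU, 41.2 and 39.0 in VE-822 and 34.5 and 47.0 untreated. Every HU library was above its untreated partner and every HU with VE-822 library below its HU partner, and outside VE-822 alone every R2 library was above its R1 library. Its log2 fold changes were 0.21 (SE 0.0731) in HU and -0.12 (SE 0.0731) for VE-822 added to HU, with adjusted p-values of 0.189 and 0.394 by limma with the block.

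The GINS subunits, which complete the helicase, were less abundant. GINS4 had 6.25 and 9.34 FPKM in HU with VE-822, 7.08 and 8.70 in HU, 5.54 and 4.98 in VE-822 and 4.52 and 8.43 untreated with siSETD2. With siNT, GINS4 had 6.80 and 8.21 FPKM in HU with VE-822, 8.16 and 9.26 in HU, 6.37 and 5.21 in VE-822 and 5.86 and 7.87 untreated. It was higher in HU in each pair, by 0.30 (SE 0.177) on average, with adjusted p-values of 0.771 by limma without the block and 0.16 with it. GINS2 in siSETD2 cells had 3.38 and 7.52 FPKM in HU with VE-822, 3.42 and 5.33 in HU, 5.10 and 4.64 in VE-822 and 4.34 and 5.19 untreated. With siNT, GINS2 had 5.07 and 7.14 FPKM in HU with VE-822, 5.53 and 6.71 in HU, 5.64 and 5.64 in VE-822 and 4.18 and 5.44 untreated. Its averaged difference between siSETD2 and siNT, -0.20 (SE 0.14), was among the 3 lowest of the members and had an adjusted p of 0.706 in limma. GINS1 and GINS3 had log2 fold changes in HU of 0.0056 and 0.16, and MCM10, a helicase activator, 0.28 with an adjusted p of 0.0875 by limma with the block.

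MCM8, a helicase related to the MCM subunits, had 12.8 and 15.6 FPKM in HU with VE-822, 14.4 and 17.9 in HU, 15.4 and 12.9 in VE-822 and 13.5 and 19.0 untreated with siSETD2. With siNT, MCM8 had 15.8 and 16.6 FPKM in HU with VE-822, 15.9 and 18.8 in HU, 15.1 and 12.8 in VE-822 and 16.4 and 18.7 untreated. It was lower in HU with VE-822 than in both HU and untreated cells in each pair, without passing the test. In VE-822 alone it fell by 0.24 (SE 0.0855) in the blocked fit only (limma adjusted p = 0.0385, against 0.189 without the block).

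Among the primase genes, PRIM2, the large primase subunit, had the highest level. PRIM2 had 10.6 and 10.4 FPKM in HU with VE-822, 10.6 and 8.50 in HU, 8.85 and 7.69 in VE-822 and 12.3 and 9.91 untreated with siSETD2. With siNT, PRIM2 had 8.84 and 9.53 FPKM in HU with VE-822, 11.5 and 9.04 in HU, 8.96 and 7.85 in VE-822 and 11.0 and 11.5 untreated. All 4 VE-822-alone libraries lay below all 4 untreated ones, and PRIM2 fell by 0.38 (SE 0.107) (adjusted p = 0.0256 in limma, 0.00603 with the block). In HU its fold change was -0.16, with an adjusted p of 0.819.

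POLA1, the catalytic subunit of polymerase alpha, had 4.45 and 5.20 FPKM in HU with VE-822, 4.46 and 5.84 in HU, 5.20 and 5.36 in VE-822 and 4.14 and 5.22 untreated with siSETD2. With siNT, POLA1 had 3.62 and 4.94 FPKM in HU with VE-822, 4.74 and 6.13 in HU, 5.60 and 4.88 in VE-822 and 4.38 and 5.31 untreated. It was higher in HU than untreated in each pair and lower in HU with VE-822 than in HU in each pair. The log2 fold changes were 0.12 (SE 0.0603) and -0.18 (SE 0.0603), with adjusted p-values of 0.344 and 0.155 by limma with the block. POLA2, the accessory subunit, had 1.22 and 1.82 FPKM in HU with VE-822, 1.93 and 2.78 in HU, 1.65 and 1.46 in VE-822 and 2.48 and 2.13 untreated with siSETD2. With siNT, POLA2 had 1.60 and 2.12 FPKM in HU with VE-822, 2.17 and 2.13 in HU, 1.49 and 1.46 in VE-822 and 1.87 and 1.83 untreated. It was lower in HU with VE-822 than in HU in each pair, with an average difference of -0.28 (SE 0.111) and adjusted p-values of 0.535 by limma without the block and 0.162 with it. In VE-822 alone every library was below every untreated one, with a fold change of -0.29 and adjusted p-values of 0.0817 and 0.031. PRIM1, the catalytic primase subunit, had fold changes of 0.16 in HU and -0.15 for VE-822 added to HU, and neither passed the test.

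PCNA, the clamp that tethers polymerases to DNA, had 103 and 155 FPKM in HU with VE-822, 101 and 136 in HU, 98.5 and 97.0 in VE-822 and 106 and 88.3 untreated with siSETD2. With siNT, PCNA had 109.7 and 146 FPKM in HU with VE-822, 119.6 and 141 in HU, 106 and 92.1 in VE-822 and 81.4 and 90.2 untreated. HU exceeded untreated in 3 of the 4 pairs, and HU with VE-822 also in 3 of the 4, and the exception in both was siSETD2 R1, where the untreated library had the higher value. PCNA was higher by 0.43 (SE 0.122) in HU and 0.47 (SE 0.122) in HU with VE-822, with adjusted p-values of 0.109 and 0.0438 by limma with the block and 0.507 and 0.227 without it. Without the VE-822-alone libraries the blocked p of HU with VE-822 was 0.087, so that call depends on them.

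No clamp loader subunit among the 43 members was called in HU or in HU with VE-822. CHTF18, which forms an alternative loader with DSCC1, had 13.5 and 21.5 FPKM in HU with VE-822, 16.4 and 27.7 in HU, 18.5 and 22.2 in VE-822 and 16.8 and 26.4 untreated with siSETD2. With siNT, CHTF18 had 14.0 and 22.2 FPKM in HU with VE-822, 15.1 and 21.7 in HU, 15.8 and 20.4 in VE-822 and 19.4 and 22.6 untreated. It was lower in HU with VE-822 than untreated in each pair, at -0.26 (SE 0.231) (limma adjusted p = 0.661, and 0.148 with the block). RFC4, a small subunit of the main loader, had 15.0 and 19.7 FPKM in HU with VE-822, 15.5 and 19.6 in HU, 19.9 and 19.3 in VE-822 and 18.8 and 19.5 untreated with siSETD2. With siNT, RFC4 had 14.5 and 17.6 FPKM in HU with VE-822, 14.9 and 18.6 in HU, 17.8 and 17.5 in VE-822 and 15.4 and 19.5 untreated. Its siSETD2 library was above the siNT library of the same treatment and number in all 8 comparisons, by 0.11 (SE 0.0472) on average, with an adjusted p of 0.211 by limma with the block. RFC3 had 13.7 and 16.1 FPKM in HU with VE-822, 13.6 and 14.9 in HU, 12.5 and 10.4 in VE-822 and 13.4 and 14.5 untreated with siSETD2. With siNT, RFC3 had 12.4 and 15.2 FPKM in HU with VE-822, 13.5 and 17.5 in HU, 13.8 and 10.3 in VE-822 and 13.1 and 15.8 untreated. It was higher in HU in each pair, and in VE-822 alone it fell by 0.26 (SE 0.0925) in the blocked fit only (limma adjusted p = 0.0401, against 0.155 without the block). The other loader subunits RFC1, RFC2, RFC5 and DSCC1 had HU fold changes of 0.024, 0.15, 0.10 and 0.029, and none passed the test.

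POLD2, the second subunit of polymerase delta, had 42.4 and 48.5 FPKM in HU with VE-822, 35.9 and 40.9 in HU, 31.2 and 34.4 in VE-822 and 44.7 and 42.1 untreated with siSETD2. With siNT, POLD2 had 39.4 and 47.1 FPKM in HU with VE-822, 39.9 and 39.6 in HU, 29.7 and 32.0 in VE-822 and 39.4 and 38.1 untreated. All 4 VE-822-alone libraries lay below all 4 untreated ones, and POLD2 fell by 0.36 (SE 0.0909) (limma adjusted p = 0.0174, and 0.00419 with the block). POLE, the catalytic subunit of polymerase epsilon, had 11.6 and 16.7 FPKM in HU with VE-822, 11.6 and 19.4 in HU, 16.7 and 17.7 in VE-822 and 8.30 and 16.9 untreated with siSETD2. With siNT, POLE had 12.7 and 16.9 FPKM in HU with VE-822, 11.9 and 19.7 in HU, 15.4 and 17.2 in VE-822 and 12.9 and 17.7 untreated. Untreated siSETD2 R1 was the lowest of the 16, and POLE rose by 0.29 (SE 0.0927) in VE-822 alone in the blocked fit only (limma adjusted p = 0.0241, against 0.398 without the block). POLE2, the second epsilon subunit, had 16.1 and 19.7 FPKM in HU with VE-822, 17.4 and 19.4 in HU, 16.9 and 16.6 in VE-822 and 19.3 and 20.7 untreated with siSETD2. With siNT, POLE2 had 17.4 and 19.8 FPKM in HU with VE-822, 17.8 and 21.5 in HU, 17.8 and 16.5 in VE-822 and 17.9 and 24.0 untreated. It was lower in HU than untreated in each pair, with an average of -0.10 (SE 0.0676) and an adjusted p of 0.514 by limma with the block, and in VE-822 alone it fell by 0.25 (SE 0.0676) with the block (adjusted p = 0.011, against 0.121 without it). POLD1 and POLD3 had HU fold changes of 0.10 and 0.22 and were not called in any comparison.

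The RPA subunits, which cover single-stranded DNA, had 1 called member in VE-822 alone, RPA1. RPA1 had 11.7 and 13.3 FPKM in HU with VE-822, 12.2 and 12.2 in HU, 9.90 and 9.53 in VE-822 and 12.9 and 12.3 untreated with siSETD2. With siNT, RPA1 had 11.8 and 12.5 FPKM in HU with VE-822, 13.6 and 12.3 in HU, 10.9 and 9.70 in VE-822 and 11.5 and 11.4 untreated. All 4 VE-822-alone libraries lay below all 4 untreated ones, and RPA1 fell by 0.24 (SE 0.0751) (limma adjusted p = 0.0375, and 0.0144 with the block). RPA2 had 22.7 and 22.0 FPKM in HU with VE-822, 20.7 and 17.1 in HU, 17.2 and 16.3 in VE-822 and 22.5 and 14.7 untreated with siSETD2. With siNT, RPA2 had 19.1 and 21.1 FPKM in HU with VE-822, 19.1 and 20.1 in HU, 18.6 and 16.9 in VE-822 and 17.2 and 15.9 untreated. It was higher in HU with VE-822 than untreated in each pair, by 0.27 (SE 0.12) (limma adjusted p = 0.353, and 0.135 with the block). RPA3 had a fold change of 0.24 in VE-822 alone, with an adjusted p of 0.0837 by limma with the block.

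FEN1, which cuts the flaps of Okazaki fragments, had 54.9 and 72.2 FPKM in HU with VE-822, 53.6 and 63.5 in HU, 46.1 and 50.5 in VE-822 and 66.0 and 53.2 untreated with siSETD2. With siNT, FEN1 had 52.5 and 67.9 FPKM in HU with VE-822, 61.0 and 64.0 in HU, 52.7 and 53.6 in VE-822 and 51.1 and 52.8 untreated. In no treatment did its libraries lie all above or all below the untreated ones, and its HU fold change was 0.12 (SE 0.123) with an adjusted p of 0.956 in limma. LIG1, which seals the fragments, had 7.17 and 13.4 FPKM in HU with VE-822, 8.15 and 15.6 in HU, 11.9 and 12.8 in VE-822 and 7.30 and 12.7 untreated with siSETD2. With siNT, LIG1 had 10.4 and 15.0 FPKM in HU with VE-822, 11.5 and 15.3 in HU, 14.2 and 13.6 in VE-822 and 11.0 and 13.1 untreated. In 7 of 8 comparisons by treatment and number the siSETD2 library was lower, and the averaged difference of -0.24 (SE 0.0722) was the lowest of the members, with an adjusted p of 0.091 by limma with the block and 0.708 without it.

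TIMELESS, the fork protection factor that pairs with TIPIN, had 21.0 and 26.9 FPKM in HU with VE-822, 21.5 and 26.9 in HU, 23.9 and 24.3 in VE-822 and 16.9 and 21.0 untreated with siSETD2. With siNT, TIMELESS had 21.8 and 27.3 FPKM in HU with VE-822, 22.7 and 27.8 in HU, 22.7 and 22.9 in VE-822 and 19.7 and 22.8 untreated. HU was above untreated in each pair, VE-822 added to HU left it slightly lower in each pair, and HU with VE-822 stayed above untreated in each pair. TIMELESS rose in the blocked fit, by 0.29 (SE 0.0574) in HU and 0.26 (SE 0.0574) in HU with VE-822, with adjusted p-values of 0.0367 and 0.0258 by limma with the block and 0.639 and 0.404 without it. Without the VE-822-alone libraries the blocked values were 0.107 and 0.0677, so both calls depend on them. In VE-822 alone it rose by 0.22 with the block (limma adjusted p = 0.00987, against 0.221 without it). TIPIN and WDHD1 had HU fold changes of 0.16 and 0.015.

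UNG, the glycosylase that removes uracil from DNA, had the largest averaged drug difference of the members. UNG had 24.0 and 37.5 FPKM in HU with VE-822, 17.6 and 26.1 in HU, 19.2 and 21.2 in VE-822 and 16.7 and 17.9 untreated with siSETD2. With siNT, UNG had 22.2 and 34.4 FPKM in HU with VE-822, 21.7 and 26.3 in HU, 22.6 and 21.8 in VE-822 and 15.3 and 16.5 untreated. All 4 libraries of HU with VE-822 lay above all 4 untreated ones, and HU with VE-822 exceeded HU and HU exceeded untreated in each pair. HU with VE-822 exceeded untreated by 0.76 (SE 0.175), which missed the threshold without the block (limma adjusted p = 0.0877) and passed with it (0.00474), also without the VE-822-alone libraries (0.0200). The HU difference was 0.43 (SE 0.103) and that for VE-822 added to HU 0.33 (SE 0.103), with adjusted p-values of 0.0693 and 0.13 by limma with the block. In VE-822 alone UNG was 0.33 higher, with adjusted p-values of 0.185 without the block and 0.0226 with it. USP1, which strips ubiquitin from PCNA, had a fold change of 0.15 in HU against untreated cells, and with VE-822 as well it was 0.23. Neither passed the test.

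**Figure D2:**
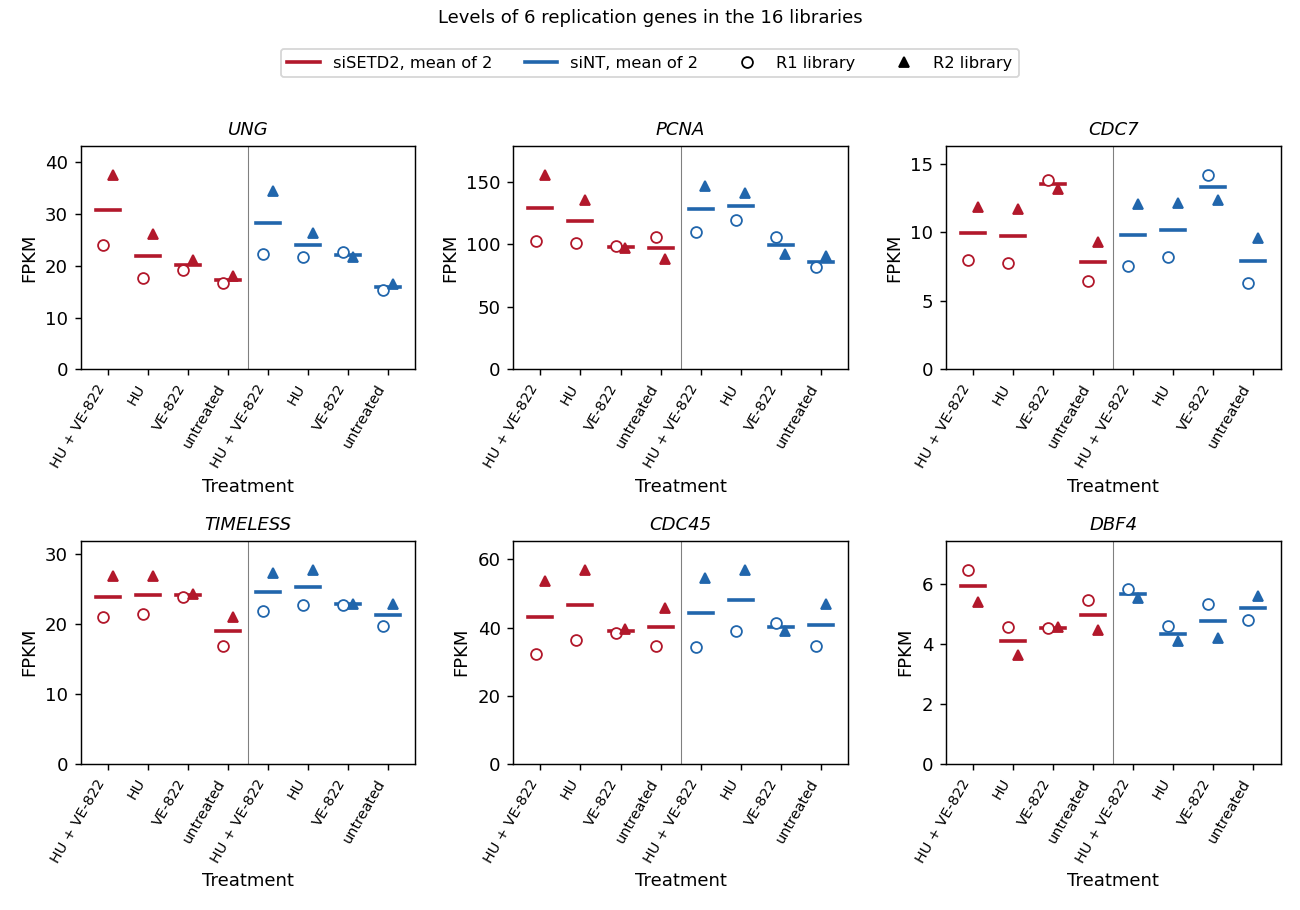
FPKM of 6 replication genes in every library (open circles R1, filled triangles R2, bars the mean of 2), by treatment, with siSETD2 in red left of the grey line and siNT in blue right of it. UNG is highest in HU with VE-822, at 22.2 to 37.5 FPKM, against 15.3 to 17.9 FPKM untreated, and the DBF4 means are lowest in HU.

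Chromatin genes were represented by ATAD2, a bromodomain ATPase, with the highest level. ATAD2 had 29.0 and 36.4 FPKM in HU with VE-822, 31.5 and 40.0 in HU, 35.3 and 33.0 in VE-822 and 25.4 and 36.1 untreated with siSETD2. With siNT, ATAD2 had 27.1 and 37.4 FPKM in HU with VE-822, 32.4 and 46.6 in HU, 37.3 and 31.5 in VE-822 and 27.6 and 38.9 untreated. It was higher in HU than untreated and lower in HU with VE-822 than in HU in each pair. The averages were 0.23 (SE 0.0742) and -0.20 (SE 0.0742), with adjusted p-values of 0.152 and 0.185 by limma with the block. SLBP, which binds the stem-loop of replication-dependent histone mRNAs, had 23.8 and 30.9 FPKM in HU with VE-822, 21.7 and 22.3 in HU, 19.4 and 18.7 in VE-822 and 25.3 and 19.9 untreated with siSETD2. With siNT, SLBP had 22.5 and 27.4 FPKM in HU with VE-822, 21.5 and 24.0 in HU, 21.7 and 19.9 in VE-822 and 18.7 and 23.4 untreated. Each HU with VE-822 library was above its HU partner, by 0.20 (SE 0.12) on average, with adjusted p-values of 0.734 by limma without the block and 0.334 with it.

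CHAF1A, the large subunit of the histone chaperone CAF-1, had 13.3 and 17.7 FPKM in HU with VE-822, 12.7 and 17.8 in HU, 16.3 and 16.5 in VE-822 and 12.1 and 16.6 untreated with siSETD2. With siNT, CHAF1A had 11.0 and 18.3 FPKM in HU with VE-822, 12.2 and 16.1 in HU, 15.7 and 18.2 in VE-822 and 12.0 and 17.4 untreated. Its values followed R1 and R2, and it rose in VE-822 alone by 0.21 (SE 0.0725) in the blocked fit only (limma adjusted p = 0.0394, against 0.455 without the block). ASF1B, a histone chaperone, had 5.10 and 7.25 FPKM in HU with VE-822, 4.74 and 5.99 in HU, 3.69 and 3.57 in VE-822 and 5.19 and 4.64 untreated with siSETD2. With siNT, ASF1B had 5.31 and 6.91 FPKM in HU with VE-822, 6.13 and 6.63 in HU, 4.91 and 4.65 in VE-822 and 4.13 and 6.23 untreated. The siSETD2 library was the lower one in 6 of 8 comparisons by treatment and number, with an average of -0.14 (SE 0.0956) and an adjusted p of 0.685 in limma. UHRF1 and DNMT1, which copy DNA methylation, and CHAF1B had HU fold changes of 0.16, 0.14 and 0.17, and none passed the test.

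The HU differences were not the same in every pair. In siSETD2 R1, 19 of the 43 members were higher in HU than untreated, with a median difference of -0.033. In siSETD2 R2 35 were higher (median 0.16), in siNT R1 35 (median 0.17) and in siNT R2 34 (median 0.18). The siSETD2 R1 pair thus differed from the other 3 pairs. Against the siNT R1 library of the same treatment, 30 members were higher in untreated siSETD2 R1 (median 0.11) and 8 in siSETD2 R1 in HU (median -0.0995). Which library of the pair the difference comes from was not tested. PCNA was 105.9 FPKM in untreated siSETD2 R1, against 81.4 to 90.2 FPKM in the other 3 untreated libraries, and POLE was 8.30 FPKM, against 12.9 to 17.7 FPKM. Without untreated siSETD2 R1 the median HU fold change of the members was 0.075 averaged over both siRNAs and -0.022 in siSETD2. Other libraries moved these medians as much. Over all libraries left out in turn they ranged from 0.043 (without siSETD2 R2 in HU) to 0.20 (without siSETD2 R1 in HU) averaged, from -0.092 to 0.22 in siSETD2 without the same libraries, and in siNT from 0.020 (without untreated R1) to 0.29 (without R1 in HU). Each such value sets R1 or R2 alone against both in 1 group, so it also carries the R1 to R2 difference. The next median and calls again leave out untreated siSETD2 R1. For HU with VE-822 against untreated the median without it was -0.0019, and 2 members were called by limma without the block, both higher: RPA2 (0.42, adjusted p = 0.0414) and GINS3 (0.44, adjusted p = 0.0457). In untreated siSETD2 cells RPA2 had 22.5 FPKM in R1 and 14.7 in R2, and GINS3 4.65 FPKM in R1 and 2.56 in R2. In these calls the untreated siSETD2 group thus rests on R2 alone. How much of each call is the R1 to R2 difference cannot be told.

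**Figure D3:**
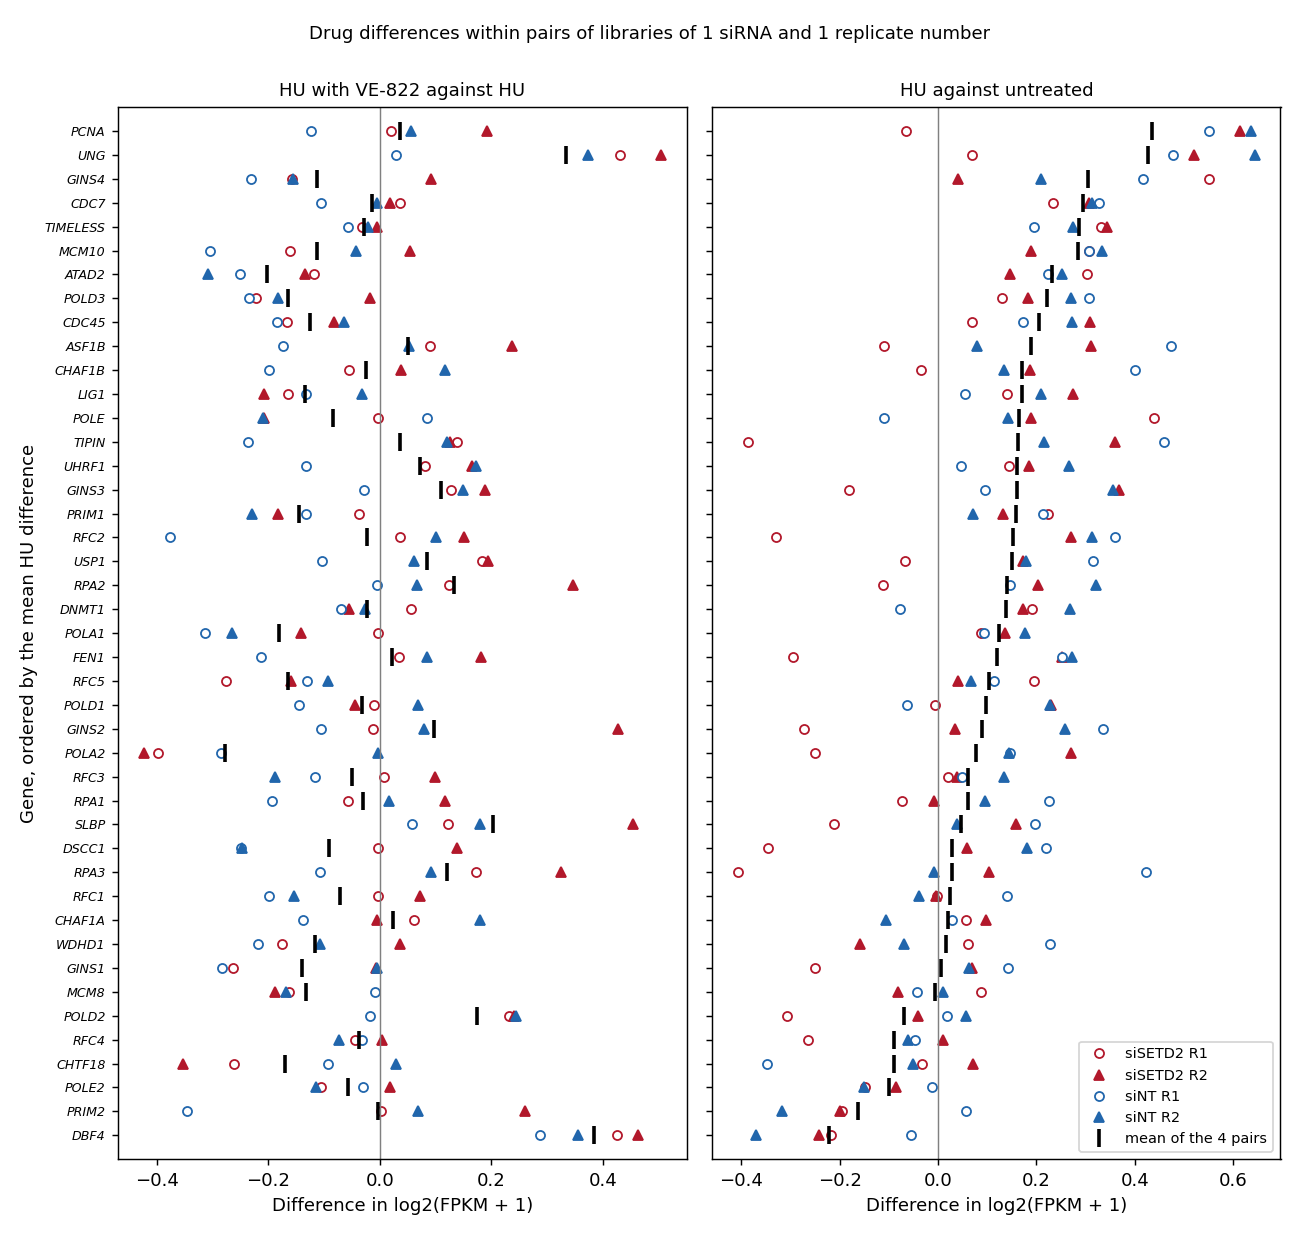
Differences in log2(FPKM + 1) within the 4 pairs of libraries of 1 siRNA and 1 replicate number, for HU with VE-822 against HU (left) and HU against untreated (right); red is siSETD2, blue siNT, open circles R1, filled triangles R2 and black bars the mean of the 4 pairs. In HU, 14 genes lie right of 0 in all 4 pairs, and DBF4 lies left of 0 in HU and right of 0 when VE-822 is added.

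Within 1 siRNA, HU against untreated gave 27 of 43 members higher in siSETD2 (median 0.053) and 36 in siNT (median 0.16). Limma called 0 members in siSETD2 without the block (0% of all genes) and 0 with it (0.199% of all genes), and 0 in siNT without the block (0% of all genes) and 0 with it (0.168% of all genes). Limma-voom called 0 in each, and unadjusted p-values under 0.05 without the block numbered 0 in siSETD2 and 2 in siNT. The largest HU difference was that of PCNA in siNT, at 0.59 (SE 0.224), against 0.27 (SE 0.224) in siSETD2. The difference of the 2 responses, siSETD2 minus siNT, had a median of -0.071 with 11 of 43 members higher, where 47.7% of all genes were higher. No member was called by limma without the block (0% of all genes called) or with it (0% of all genes called), none had an unadjusted p under 0.05 in either fit, and limma-voom called 0. Leaving out 1 library moved this median between -0.22 and 0.072, and it was above 0 without untreated siNT R1 (0.072) or siSETD2 R1 in HU (0.0082). Such values also carry the R1 to R2 difference. A standard error of 0.271 for the median member shows what size of difference 2 libraries a group could resolve.

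For VE-822 added to HU, 23 of 43 members were higher in siSETD2 (median 0.027) and 8 in siNT (median -0.062). In siNT R1 39 members were lower in HU with VE-822 than in HU, and 22 in siNT R2. Limma called 0 members in siSETD2 without the block (0% of all genes) and 0 with it (0.0306% of all genes), and 0 in siNT without the block (0% of all genes) and 0 with it (0.0153% of all genes). Unadjusted p-values under 0.05 without the block numbered 2 in siSETD2 and 1 in siNT, and limma-voom called 0 in each. The lowest fold change in siSETD2 was that of POLA2, at -0.41 (SE 0.157) in siSETD2 and -0.14 (SE 0.157) in siNT. The difference of the responses, siSETD2 minus siNT, had a median of 0.12 with 37 of 43 members higher, where 59.9% of all genes were higher with a median of 0.040. Leaving out 1 library moved this median between -0.096 and 0.31, and it was below 0 without R2 of siSETD2 (-0.096) or R1 of siNT (-0.060) under both drugs, or without siSETD2 R1 in HU (-0.014). These values, too, carry the R1 to R2 difference. Here too 0 were called by limma without the block (0% of all genes) and with it (0% of all genes), 0 had an unadjusted p under 0.05 in either fit, and limma-voom called 0.

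By treatment, the siSETD2 medians lay near 0 and none kept its sign when 1 library was left out. In HU with VE-822, 27 of 43 members were higher in siSETD2 than in siNT (median 0.030), in HU 6 (median -0.080, where 43.3% of all genes were higher with a median of -0.027), in VE-822 15 (median -0.032) and untreated 21 (median -0.0070). Leaving out 1 library moved them between -0.19 and 0.22 in HU with VE-822, -0.22 and 0.043 in HU, -0.11 and 0.022 in VE-822 and -0.13 and 0.15 untreated. Each such value also carries the R1 to R2 difference. In pairs of the same number in HU, 8 members were higher in R1 (median -0.0995) and 12 in R2 (median -0.061), against 43.1% and 44.9% of all genes. Under both drugs 23 were higher in each pair (medians 0.034 and 0.032). Untreated, 30 were higher in R1 (median 0.11) and 16 in R2 (median -0.043). The 6 that were higher in HU in the fit included CHTF18 at 0.23 (SE 0.327). The lowest in HU was GINS2 at -0.42 (SE 0.281), and in HU with VE-822 LIG1 at -0.31 (SE 0.341). Limma without the block called 0 members in HU with VE-822, HU, VE-822 and untreated cells, with 0% of all genes in each, no unadjusted p under 0.05 and 0 calls by limma-voom. With the block it called 0 in HU with VE-822 (0% of all genes), 0 in HU (0% of all genes), 0 in VE-822 (0.0458% of all genes) and 0 untreated (0.00764% of all genes), with 0, 2, 1 and 1 members at an unadjusted p under 0.05.

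**Figure D4:**
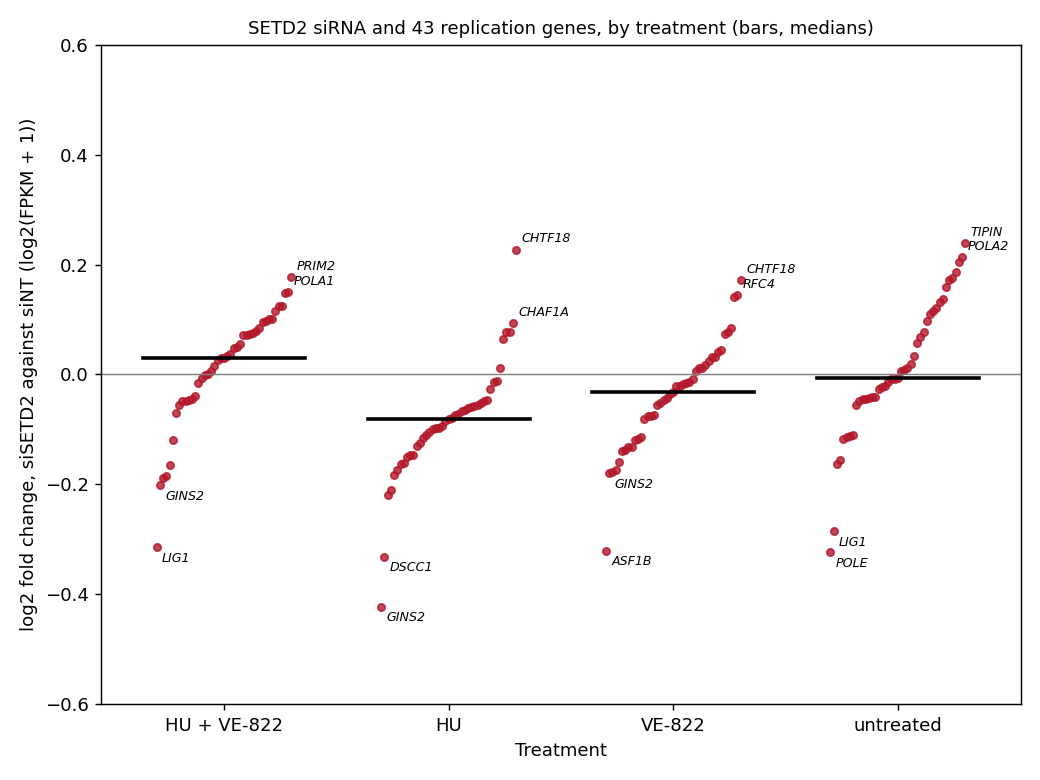
Log2 fold changes of siSETD2 against siNT on log2(FPKM + 1) for the 43 members tested, sorted within each treatment; black bars are medians and the outermost genes are named. The median is 0.030 in HU with VE-822, -0.080 in HU, -0.032 in VE-822 and -0.0070 untreated.

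Other genes of DNA replication, a list of 35 with 34 tested, gave 0 to 4 calls per averaged comparison with the block outside VE-822 alone. In HU 25 of the 34 were higher than untreated (median 0.096), for VE-822 added to HU 22 (median 0.034) and in HU with VE-822 against untreated 26 (median 0.13). In HU, ORC1 of the origin recognition complex rose by 0.39 (SE 0.0836, limma adjusted p = 0.0493) in the blocked fit only, the 1 call among the 34, against 1.6% of all genes. In HU with VE-822 against untreated, the blocked fit called the helicase subunits MCM2 (0.43, adjusted p = 0.0189) and MCM6 (0.35, adjusted p = 0.0225), the checkpoint adaptor CLSPN (0.55, adjusted p = 0.0485) and CHTF8 (0.40, adjusted p = 0.0317), all higher by limma. Without the block their limma adjusted p-values were 0.416, 0.660, 0.338 and 0.144 in that order, so none passed. Their values without the VE-822-alone libraries are not given here. These 4 of 34 compare with 7.3% of all genes. CHTF8 is the partner of CHTF18 and DSCC1 in the alternative clamp loader, and CHTF18 itself was lower in each pair. In siSETD2 against siNT averaged over treatments, the helicase subunit MCM4 fell by 0.23 (SE 0.051) in the blocked fit (limma adjusted p = 0.0351, against 0.637 without the block), the 1 call there, against 3.88% of all genes, and 7 of the 34 were higher. In VE-822 alone limma without the block called FAM111A (0.58) and CHTF8 (0.51) higher and CDC6 (-0.35), a licensing factor, and SSRP1 (-0.28), a histone chaperone subunit, lower, against 24.7% of all genes. With the block it called 10 higher and 5 lower of the 34 there, against 44.9% of all genes.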

How the data were processed

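Each of the 16 libraries was mapped to its group and replicate number by its title. The authors deposited 1 table of FPKM, covering 58735 genes, which scales fragments by exon length and by library size. Per the submitters' processing notes, the build was hg38 and the tools were STAR 2.6.1d and FastQC, then DESeq2 1.26.0 and featureCounts 1.5.0-p3, listed in no order. Their settings and strand use are not stated in the labels. Every identifier was found in GENCODE 29, whose symbols, positions and exon lengths were used. FPKM times exon length gave whole fragments within 0.01 for 100% of values above 0, and the deposited denominators lay at 0.940 to 1.07 times these totals.

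In R 4.3.3, limma-trend (limma 3.58.1) was run on log2(FPKM + 1) over the 13088 genes whose mean reached 1 FPKM. Each group had 1 mean (8 residual degrees of freedom, prior 2.98), and 15 contrasts were fitted with Benjamini-Hochberg adjustment over all genes tested and a threshold of 0.05. The scale understates changes of low genes. Across genes, R1 minus R2 differences of the 6 groups without VE-822 alone correlated with each other (15 pairs, 0.363 to 0.746), so the shared numbers pair those libraries. With 1 VE-822-alone group in the pair the values were -0.0517 to 0.295 in 12 pairs. Between the VE-822-alone groups of both siRNAs the value was 0.395, and the block in 6 groups does not take out that shared difference. The pairing comes from the numbers and the data, since no shared culture or day is named. The block in those 6 groups left 7 residual degrees of freedom.

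All libraries' values are given for genes called in any contrast by either fit, the 3 largest rises and falls per averaged contrast and the most abundant gene of each of 9 roles. Other replication genes were named if called. Genes, lists and rules were chosen with earlier results of these data known. Alternatives were a pseudocount of 0.1, no filter, other scalings, limma-voom on recovered fragments, other blocks and leaving out libraries. The fit was also run on simulated data with a shared R1 shift in the 6 groups. That simulation held no separate set of VE-822-alone libraries, so it cannot vouch for calls that depend on them.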

Additional observations from a re-analysis of the deposited data

How the results depend on the processing

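Counts of called members moved by more than 1.5 times under the following settings. With the replicate block in 6 groups, HU against untreated gave 2 calls (0 without it), HU with VE-822 against untreated 4 (0 without it) and VE-822 alone 12 (4 without it). A replicate block over all 8 groups gave 1 call for HU with VE-822 against untreated, and a replicate block without the 4 VE-822-alone libraries gave 2 for HU with VE-822 against untreated. Neither of these other blocks called a member in HU against untreated. Leaving out 1 library gave 0 to 2 calls for HU with VE-822 against untreated and 0 to 4 for VE-822 alone. In VE-822 alone the count was 0 without untreated siNT R1, 2 without untreated siNT R2 or siNT R1 in VE-822, and 1 without siNT R2 in VE-822, untreated siSETD2 R1 or either siSETD2 library in VE-822. Changes of at most 1.5 times in VE-822 alone were 6 calls with the block over all 8 groups or with scaling to library totals, and 3 with no filter, with median ratios or with limma-voom. The block changed no other call. Of the fold changes of called members, 382 kept their side of the threshold, 21 newly passed, 23 no longer passed and none reversed. These numbers count each gene and comparison called by either fit once per setting, set against the fit without the block. In that fit only the 4 in VE-822 alone were called, so all 23 losses come from those 4. Most of the 382 are results that were not called and stayed so, so 382 does not measure how stable the calls are. The cause of the moves in calls was not tested. Medians near 0 turned sign with the scaling for siSETD2 averaged over treatments (0.032 by library totals, against -0.0037), siSETD2 in untreated cells (0.050, against -0.0070), VE-822 alone (0.0074 by median ratios, against -0.021) and VE-822 added to HU in siSETD2 (-0.013 by median ratios, against 0.027). With 2 libraries a group, standard errors of 0.135 for averaged drug contrasts and 0.271 for differences of responses limit what could be called. Leaving out 1 library turned the sign of the members' median in each comparison but HU against untreated averaged over siRNAs and in siNT. It moved the median between -0.14 and 0.057 for VE-822 added to HU, between -0.016 and 0.21 for HU with VE-822 against untreated, between -0.13 and 0.0051 for VE-822 alone and between -0.060 and 0.040 for siSETD2 averaged over treatments. With 1 library left out, 1 group rests on R1 or R2 alone, so these turns of sign also carry the R1 to R2 difference.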
